A study of Mus musculus with 4 samples.

Results

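The Hox genes of the mouse are the 39 genes of the 4 Hox clusters, HoxA to HoxD, and each was found in the table of 25965 listed genes by its name, Hox followed by a cluster letter and a paralogue number from 1 to 13. HoxA held 11 of them, HoxB 10, HoxC 9 and HoxD 9. By paralogue number, 8 were anterior (groups 1 to 3), 15 central (groups 4 to 8) and 16 posterior (groups 9 to 13). Their levels were measured by RNA-seq in 4 libraries of embryonic stem cells (mESCs), which were female and came from an F1 cross of FVB and CAST mice. There was 1 library per group, each with replicate number 3 and with both alleles summed. The day 0 library came from cells that had been expanded in 2i, a medium with inhibitors of MEK and GSK3 that keeps mESCs naive, and had not been differentiated. The other 3 came from day 6, after the cells had been weaned in steps of 25% into serum medium without LIF, infected with a short hairpin virus on day 2 and put under puromycin on day 3. Nons day 6 carried a hairpin with no target. Smarca4.4 day 6 and Smarca4.6 day 6 carried 2 different hairpins against Smarca4, an ATPase subunit of the BAF chromatin remodelling complex. A genotype field of the labels calls all 3 day 6 libraries a Smarcc knockdown, Nons included, so the titles were followed.

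Hox genes encode homeodomain transcription factors that give cells their position along the head to tail axis. In each cluster the genes lie in the order of their paralogue numbers, and in the embryo the low numbers are switched on first and furthest towards the head while the high numbers follow later and further back, which is known as collinearity. In mESCs the clusters are known to carry Polycomb marks and to be held at low levels, and these marks were not measured here. Retinoic acid, Wnt signals and the Cdx factors are known to open them from the anterior end, and the proteins bind DNA together with the TALE homeodomain proteins Pbx and Meis. The study differentiated cells without a directing signal in order to follow X chromosome inactivation, and the values below describe what the Hox clusters did in the same libraries.

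The read totals were 18599402 at day 0 and between 36495575 and 47143739 at day 6, so 3 reads corresponded to 0.161 CPM (reads scaled to the library total) at day 0 and to 0.0636 to 0.0822 CPM at day 6. Smarca4, the hairpin target, had 229 CPM in Nons and was lower with both hairpins, at 131 CPM with Smarca4.4 (log2 difference -0.80) and 174 CPM with Smarca4.6 (-0.40). The 6 pluripotency markers summed to 3285 CPM at day 0 and to 819 to 1096 CPM at day 6. Of the 6, 5 were at least 2-fold lower in Nons than at day 0, where 31.9% of the genes kept by the filter described below differed 2-fold. The other, Pou5f1, had 724 CPM at day 0 and 915 CPM in Nons, 701 CPM in Smarca4.4 and 982 CPM in Smarca4.6. Pou5f1 thus made up most of each day 6 sum. The other fixed marker lists summed, at day 0 and then over the day 6 range, to 170 and 446 to 486 CPM for neural genes, 14.3 and 30.9 to 35.1 CPM for early mesoderm, 9.89 and 27.5 to 32.1 CPM for mesenchyme, and 90.4 and 974 to 1217 CPM for trophectoderm. The members of a list did not all go the same way. Nes went from 43.7 to 380 CPM in Nons while Tubb3 went from 112 to 58.2 CPM, Eomes from 7.63 to 33.9 CPM while T went from 5.86 to 0.393 CPM, and Krt8 from 1.88 to 964 CPM while Tfap2c, most of the trophectoderm sum at day 0, went from 85.6 to 16.2 CPM. Endoderm markers summed to 6.29 CPM at day 0 and 4.59 to 7.04 CPM at day 6, neural crest markers to 7.47 CPM and 5.15 to 9.89 CPM, endothelial markers to 228 CPM and 8.03 to 11.6 CPM (of which Pecam1 was 227 CPM at day 0), and blood markers to 0 and 1.05 to 1.48 CPM. Hbb-bh1, Ptprc and Olig2 had 0 reads in all 4 libraries. The day 6 ranges of the endoderm and neural crest sums included the day 0 value, and those of the other lists did not. The part of these lists in the Hox values was not tested. In bulk RNA, fewer cells of a type and less RNA per cell cannot be told apart.

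The promoters of 4 members are shown because they stand for the patterns described below. Hoxd1 was higher at day 6, Hoxd13 had an interval that included equality between day 0 and Nons, and Hoxa10 and Hoxa13 were at 0 reads in Nons but not with the Smarca4 hairpins, where Hoxa10 had 3 reads in each library and Hoxa13 had 13 and 5. Each line holds the 250 bases before the RefSeq start on the gene's own strand in GRCm38.p6, written 5′ to 3′, with CpG dinucleotides in capitals. Hoxd1 lies at chr2:74762730-74762979 on the plus strand, Hoxd13 at chr2:74667975-74668224 on the plus strand, Hoxa10 at chr6:52240855-52241104 on the minus strand and Hoxa13 at chr6:52260881-52261130 on the minus strand.
Hoxd1: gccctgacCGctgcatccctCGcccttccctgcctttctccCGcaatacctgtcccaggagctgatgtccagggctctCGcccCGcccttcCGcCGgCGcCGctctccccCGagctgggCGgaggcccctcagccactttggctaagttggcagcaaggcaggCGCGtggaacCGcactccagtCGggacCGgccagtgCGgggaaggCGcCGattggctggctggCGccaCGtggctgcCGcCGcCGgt
Hoxd13: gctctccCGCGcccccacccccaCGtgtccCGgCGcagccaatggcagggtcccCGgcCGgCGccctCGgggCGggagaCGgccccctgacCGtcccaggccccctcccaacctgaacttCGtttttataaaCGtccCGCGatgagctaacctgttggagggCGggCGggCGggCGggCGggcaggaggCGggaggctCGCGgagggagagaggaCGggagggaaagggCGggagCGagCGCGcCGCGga
Hoxa10: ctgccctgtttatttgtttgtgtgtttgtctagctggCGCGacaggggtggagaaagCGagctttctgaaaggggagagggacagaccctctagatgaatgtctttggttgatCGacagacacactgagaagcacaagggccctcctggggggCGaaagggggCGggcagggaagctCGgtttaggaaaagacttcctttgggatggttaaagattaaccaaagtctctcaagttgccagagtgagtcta
Hoxa13: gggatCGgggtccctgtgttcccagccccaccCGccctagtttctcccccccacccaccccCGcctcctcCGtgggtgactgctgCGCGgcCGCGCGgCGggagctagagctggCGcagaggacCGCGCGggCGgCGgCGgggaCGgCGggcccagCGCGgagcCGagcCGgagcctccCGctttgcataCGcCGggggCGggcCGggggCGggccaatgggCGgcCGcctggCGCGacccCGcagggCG

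The capitals show how unevenly CpG is spread: 24 CpG in Hoxd1, 31 in Hoxd13, 35 in Hoxa13 and 7 in this Hoxa10 window, while a second Hoxa10 start has 20. RefSeq gave 24 starts for 22 of the 39 members, and these had a median of 12.5 CpG (range 2 to 35) against 6.0 over all 32851 promoters, and a median GC content of 58.6% against 52.4%. The 9 members with a start that were lower in Nons than at day 0, by the interval rule explained below, had a median of 13.5 CpG over 10 windows and the other 13 members a median of 12 over 14 windows. Searched on both strands, TATAAA (the core promoter box) was in 16.7% of member windows and 12.4% of all windows, TGATTNAT (a Pbx and Hox type motif) in 8.33% and 2.82%, TTTATG (a Cdx type motif) in 20.8% and 10.8%, and AGGTCA (a nuclear receptor motif) in 25.0% and 14.02%. The member percentages stand for 4, 2, 5 and 6 of 24 windows in that order, and whether they differ from those of all windows was not tested. Of the 4 windows shown, TATAAA was in that of Hoxd13, and none of the 4 motifs was in the others. The Hoxd1 window also holds 118 bases of an annotated exon of Haglr, a noncoding RNA transcribed the other way, whose exon at chr2:74762779-74762896 ends 84 bases before the Hoxd1 start.

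The Hox genes were at low levels in all 4 libraries. Their summed level was 25.9 CPM at day 0 (481 reads, interval 23.6 to 28.3). The day 6 sums were 6.77 CPM for Nons (310 reads, 6.04 to 7.57), 8.63 CPM for Smarca4.4 (407 reads, 7.81 to 9.51) and 7.54 CPM for Smarca4.6 (275 reads, 6.67 to 8.48). Intervals throughout are exact 95% intervals for counting error, since no group has a second library, and they would be too narrow if both ends of a fragment were counted. Per gene this was a mean of 0.663 CPM at day 0 and 0.174 to 0.221 CPM at day 6, and the 1087 olfactory receptor genes, taken afterwards as a reference for silent genes, had means of 0.0014 to 0.0026 CPM.

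Of the 39 members, 18 had more than 3 reads at day 0. At day 6, in the order Nons, Smarca4.4, Smarca4.6, the numbers were 11, 14 and 13, although the day 6 libraries were deeper, and 58.4% to 66.0% of all listed genes passed the same mark. In all, 6 members passed it in all 4 libraries, among them Hoxd13, Hoxd9, Hoxd8, Hoxd1 and Hoxc13. A further 7 passed it at day 0 and in no day 6 library (Hoxa3, Hoxa5, Hoxa9, Hoxa10, Hoxc9, Hoxc8 and Hoxc5), and 7 passed it in at least 1 day 6 library and not at day 0 (Hoxd11, Hoxd3, Hoxd4, Hoxb7, Hoxb2, Hoxb1 and Hoxc10). The first set lies in HoxA and HoxC. In the second, depth decides some members, since 3 reads are a higher level at day 0: Hoxd3, Hoxd4, Hoxb7 and Hoxb1 passed 0.161 CPM in a day 6 library, Hoxd11 and Hoxb2 did not, and Hoxc10 had 0.161 CPM at day 0, above all 3 day 6 libraries. The remaining 14 members never passed 3 reads, and Hoxd12, Hoxb8, Hoxb6 and Hoxb5 had 0 reads in every library. The interval for 0 reads allows up to 0.198 CPM each at day 0 and up to 0.101 CPM at day 6.

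**Figure D1:**
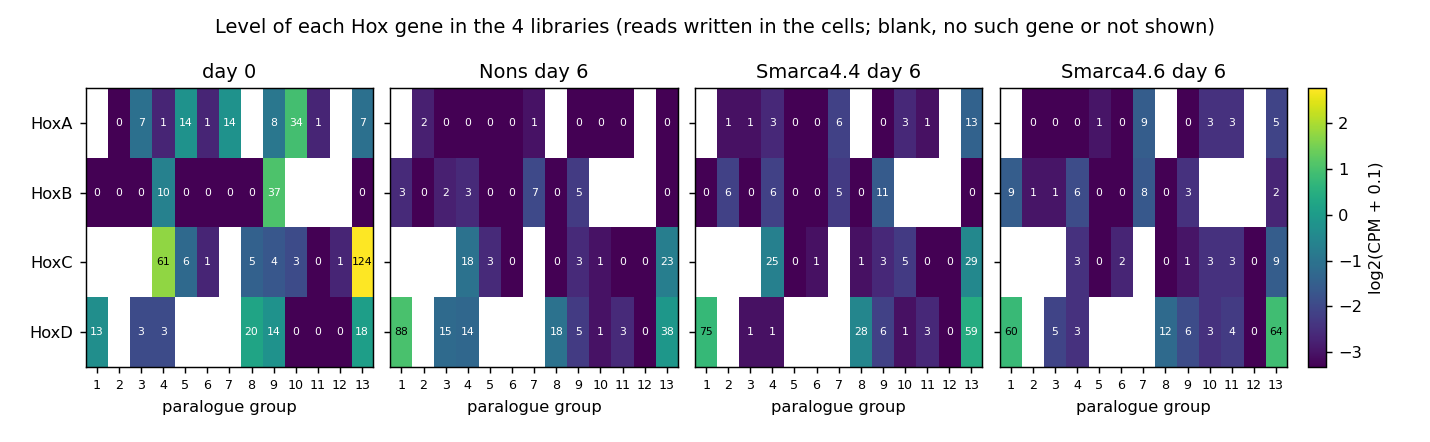
Each panel is 1 library, with clusters in rows and paralogue groups 1 to 13 in columns. Colour gives log2(CPM + 0.1), the number in a cell is the recovered reads, and white cells have no such gene or are not shown. At day 0 the brightest cells shown are Hoxc13 (124 reads) and Hoxc4 (61), and at day 6 they are Hoxd1 and Hoxd13.

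The few reads were unevenly spread along the clusters. Group 13 had 8.01 CPM at day 0 and 1.33 to 2.19 CPM at day 6. Groups 2, 6, 11 and 12 each stayed at or below 0.274 CPM in every library. In no library did the level run in 1 direction from group 1 to group 13.

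Comparing Nons with day 0 asks how the clusters stood after 6 days of differentiation. The 2 libraries also differ by medium, virus and puromycin, and these cannot be told apart. The summed level was 3.82-fold lower in Nons (3.30 to 4.42), and the difference was uneven between clusters. HoxA went from 8.49 to 1.31 CPM (6.48-fold lower, 4.78 to 8.87), HoxB from 2.53 to 0.437 CPM (5.78-fold lower, 3.36 to 10.3) and HoxC from 11.02 to 1.05 CPM (10.5-fold lower, 7.64 to 14.7). HoxD alone of the 4 had an interval that included equality, with 3.82 CPM at day 0 (71 reads) and 3.98 CPM in Nons (182 reads), a ratio of 1.04 (0.788 to 1.39) that lies outside the intervals of the other 3 clusters. The HoxD share of Hox reads was thus 14.8% at day 0 (11.7% to 18.3%). It was 58.7% for Nons (53.0% to 64.2%), 42.8% for Smarca4.4 (37.9% to 47.7%) and 57.1% for Smarca4.6 (51.0% to 63.0%). That of HoxC was 42.6%, 15.5%, 15.7% and 7.64% in the same order. The HoxD ratio rested on Hoxd1: without it the other 8 HoxD genes were 1.52-fold lower in Nons (1.08 to 2.13), still less than any of the other clusters. These sums without their leading gene, here and below, were taken after the values were seen.

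The classes of paralogue number also differed, although not in an order that held from group to group. Posterior genes went from 13.5 to 1.73 CPM (7.82-fold lower, 6.05 to 10.2), central genes from 7.31 to 1.40 CPM (5.23-fold lower, 3.86 to 7.15) and anterior genes from 5.05 to 3.65 CPM (1.38-fold lower, 1.06 to 1.79). Anterior genes held 19.5% of Hox reads at day 0 (16.1% to 23.4%) and 53.9% in Nons (48.1% to 59.5%), and posterior genes 52.2% (47.6% to 56.7%) and 25.5% (20.7% to 30.7%). Without Hoxd1 the anterior sum was 2.52-fold lower in Nons (1.83 to 3.48), and without Hoxc13 the posterior sum was 5.58-fold lower (4.04 to 7.78), close to the central ratio, but without Hoxd13 it was 13.98-fold lower (9.998 to 19.99). The central and posterior intervals overlap with all members counted. These shares rest on few genes: Hoxd1 supplied 88 of the 167 anterior reads in Nons, and Hoxc13 supplied 124 of the 251 posterior reads at day 0.

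**Figure D2:**
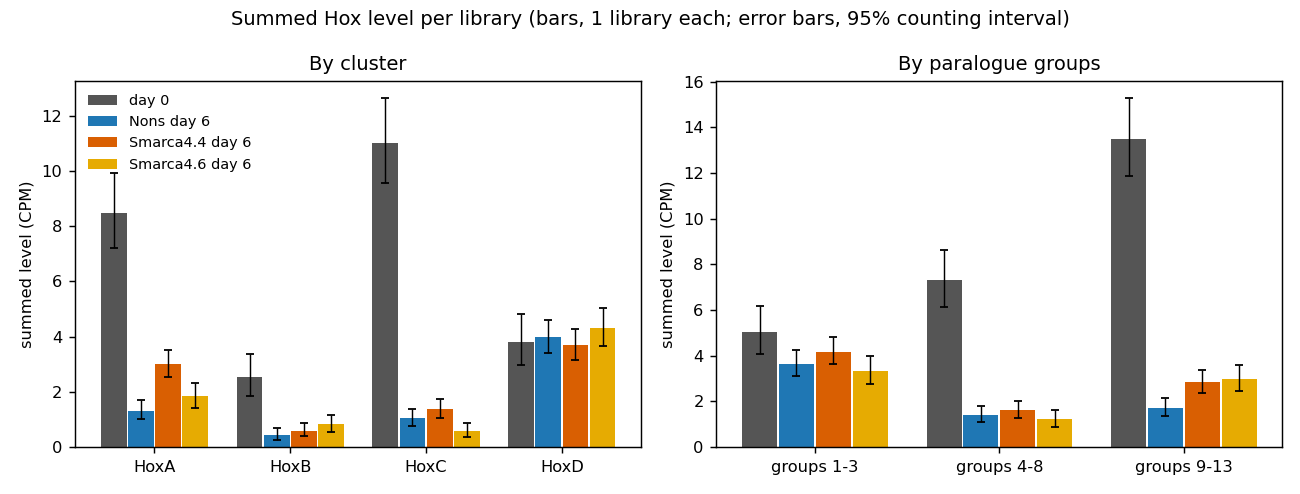
Bars are the summed level in CPM of the genes of each cluster (left) and of each set of paralogue groups (right), 1 library per bar, with 95% counting intervals. HoxA, HoxB and HoxC stand higher at day 0 than in any day 6 library, HoxD is between 3.69 and 4.30 CPM in all 4, and of the 3 classes the posterior groups show the widest gap in CPM between day 0 and day 6.

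Counted gene by gene over all members, 13 of 39 were lower in Nons with an interval wholly past 2-fold, where 7.68% of all listed genes were, and 0 were higher past 2-fold, where 9.7% of all listed genes were. The 13 were 7 of 11 in HoxA, 2 of 10 in HoxB, 3 of 9 in HoxC and 1 of 9 in HoxD. With an interval only past equality, 15 were lower, where 24.8% of all listed genes were, and 1, Hoxd1, was higher, where 26.1% were. Day 0 was above all 3 day 6 libraries for 19 members, where 27.3% of all listed genes had that order, and below all 3 for 4 members (Hoxd11, Hoxd10, Hoxd1 and Hoxb7), where 33.2% did. The 19 included 8 of the 11 HoxA genes and 7 of the 9 HoxC genes, but 2 of the 10 HoxB genes and 2 of the 9 HoxD genes. This order had no minimum of reads, so single reads decided some members. Hoxa6 and Hoxc12 had 1 read at day 0 and 0 at day 6. Hoxd10 had 0 reads at day 0 and 1, 1 and 3 in the deeper day 6 libraries, and Hoxd11 had 0 and 3, 3 and 4. The planned count of 2-fold differences among kept genes could use only 3 members, of which 2 differed 2-fold, Hoxd1 being the higher one, while Hoxd13 was under 2-fold and 31.9% of kept genes differed 2-fold. Their median log2 difference was -0.22, beside 0.031 over all kept genes.

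The day 6 values of each gene follow in the order Nons, Smarca4.4, Smarca4.6. Among the anterior genes, Hoxd1, the gene at the anterior end of HoxD, had 0.699 CPM at day 0 (13 reads), 1.92 (88), 1.59 (75) and 1.64 (60) at day 6. All 3 day 6 libraries were above day 0, and Nons was 2.75-fold higher (1.53 to 5.37). Hoxd3 had 3, 15, 1 and 5 reads in the same order of libraries and its neighbour Hoxd4 had 3, 14, 1 and 3, which is nearly 1 pattern, and the annotation gives them 388 shared exon bases, so reads there could count for both. Hoxb1, a hindbrain gene, had 0, 3, 0 and 9 reads.

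Central genes carry cervical and thoracic identity. Hoxc4 had 3.28 CPM at day 0 (61 reads), 0.393 (18), 0.530 (25) and 0.0822 (3) at day 6. Day 0 was the highest, and Nons was 8.34-fold lower (4.86 to 15.0). Hoxd8 had 1.08 CPM at day 0 (20 reads), 0.393 (18), 0.594 (28) and 0.329 (12) at day 6, and Nons was 2.73-fold lower than day 0 (1.37 to 5.48), so its interval passed equality but not 2-fold. Hoxa5 had 14 reads at day 0, 0 in Nons and Smarca4.4 and 1 in Smarca4.6. Its interval put Nons at least 8.16-fold lower than day 0. Hoxb7 had 0 reads at day 0 and 7, 5 and 8 at day 6.

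Posterior genes pattern the lumbar, sacral and tail regions and the limb ends. Hoxc13, known for its role in hair and nails, was the Hox gene with the most reads at day 0, with 6.67 CPM (124 reads) against 0.503 (23), 0.615 (29) and 0.247 (9) at day 6. All 3 day 6 libraries were below day 0, and Nons was 13.3-fold lower (8.45 to 21.7). Hoxb9, the HoxB gene with the highest mean over the 4 libraries, had 1.99 CPM at day 0 (37 reads), 0.109 (5), 0.233 (11) and 0.0822 (3) at day 6, and Nons was 18.2-fold lower (7.14 to 59.3). Hoxa10, a gene of the lumbar spine and uterus, had 34 reads at day 0 (1.83 CPM), 0 in Nons, and 3 in each Smarca4 hairpin library. Its interval put Nons at least 21.5-fold lower than day 0. Hoxd13, which patterns the digits, did not share this pattern: it had 0.968 CPM at day 0 (18 reads), 0.830 (38), 1.25 (59) and 1.75 (64) at day 6. Nons was 1.17-fold lower than day 0 with an interval that included equality (0.626-fold to 2.09-fold lower), so these depths do not separate the 2 levels. Of the 4 genes of group 13, Hoxb13 had 0, 0, 0 and 2 reads.

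**Figure D3:**
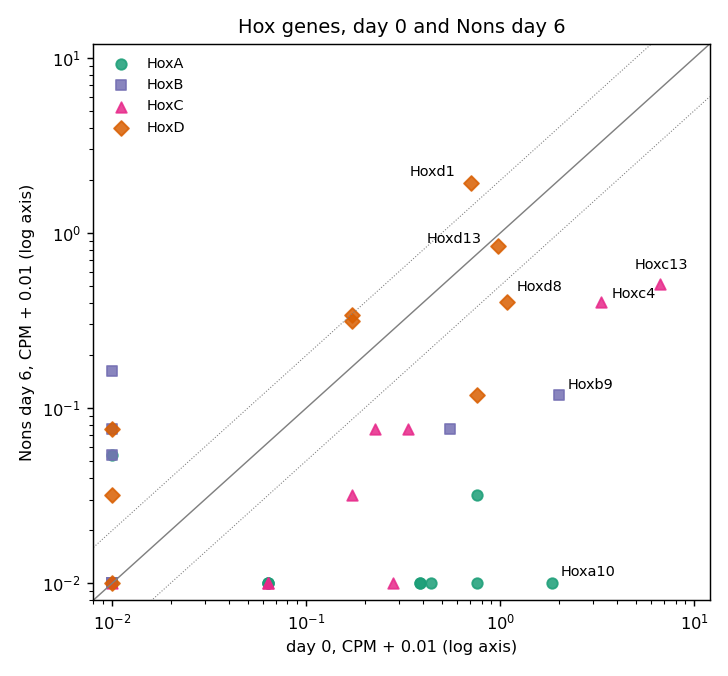
Each point is 1 of 38 Hox genes, with its day 0 level on the x axis and its Nons day 6 level on the y axis (CPM + 0.01, log axes), the shape and colour giving the cluster. The solid line is equality and the dotted lines are 2-fold. Hoxc13, Hoxc4, Hoxb9 and Hoxa10 lie below the lower line, Hoxd13 lies near equality and Hoxd1 lies above the upper line.

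Comparing each Smarca4 hairpin with Nons asks how Hox levels stood at day 6 with less Smarca4, and the 2 comparisons share the Nons library. Smarca4.4 had a summed Hox level 1.27-fold that of Nons (1.10 to 1.48), and Smarca4.6 one of 1.11-fold (0.942 to 1.31), whose interval included equality. The posterior sum was above Nons with both hairpins, 1.73 CPM in Nons against 2.84 CPM in Smarca4.4 (1.65-fold, 1.24 to 2.20) and 2.99 CPM in Smarca4.6 (1.73-fold, 1.28 to 2.34). Without Hoxd13 the posterior ratio was 1.78 for Smarca4.4 (1.20 to 2.67) and 1.38 for Smarca4.6 (0.881 to 2.15), so in Smarca4.6 it rested on that gene. Central and anterior sums had intervals that included equality in both comparisons. By cluster, HoxA was 2.28-fold higher in Smarca4.4 (1.67 to 3.14), a sum that few members make up, HoxB was 1.88-fold higher in Smarca4.6 (1.03 to 3.49) and HoxC was 1.82-fold lower in Smarca4.6 (1.07 to 3.21). The HoxC difference rested on Hoxc4, and without it the ratio was 1.33-fold lower (0.717 to 2.53). Both HoxD ratios had intervals that included equality. Some HoxA genes had reads with a hairpin and at most 1 in Nons, several of them with no more than 3 reads. Hoxa7 had 14 reads at day 0 and 1, 6 and 9 at day 6 in the order Nons, Smarca4.4, Smarca4.6, and Hoxa13 had 7 and 0, 13 and 5. Hoxa4 had 3 reads in Smarca4.4, and Hoxa11 had 1 in Smarca4.4 and 3 in Smarca4.6, both with 0 in Nons. Hoxa7 shares 586 exon bases with the noncoding RNA Hoxaas3 on the other strand.

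By gene, 1 member was higher in Smarca4.4 past 2-fold, where 0.401% of all listed genes were, and 2 were lower, where 0.158% were. The higher one was Hoxa13, a limb and genital gene, with 13 reads in Smarca4.4 against 0 in Nons and an interval that starts at 2.96-fold. The lower ones were Hoxd3 and Hoxd4, with 1 read each in Smarca4.4, which share exon bases and so may not be separate observations. In Smarca4.6, 0 members were higher past 2-fold (0.408% of all listed genes) and 0 lower (0.273%). With an interval past equality only, Hoxb2 had 6 reads in Smarca4.4 against 0, while in Smarca4.6 Hoxd13 was 2.11-fold higher (1.39 to 3.24), Hoxa7 had 9 reads against 1, Hoxa13 had 5 against 0, and Hoxd4 and Hoxc4 were lower. In all, 3 of 39 members were higher and 2 lower past equality with each hairpin, where 19.8% of all listed genes were higher and 13.7% lower with Smarca4.4 and 22.4% and 13.8% with Smarca4.6.

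For the planned count, 0 of the 3 kept members differed 2-fold from Nons in Smarca4.4, where 1.19% of kept genes did, and 1, Hoxd13, did in Smarca4.6, where 1.82% did. The median log2 difference of the 3 was 0.59 with Smarca4.4 and 0.017 with Smarca4.6, beside 0.038 and 0.064 over all kept genes. Hoxd1, the Hox gene with the most reads in Nons, was 1.21-fold lower in Smarca4.4 (0.878-fold to 1.67-fold lower) and 1.17-fold lower in Smarca4.6 (0.833-fold to 1.65-fold lower), so a difference of 2-fold lies outside both intervals.

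**Figure D4:**
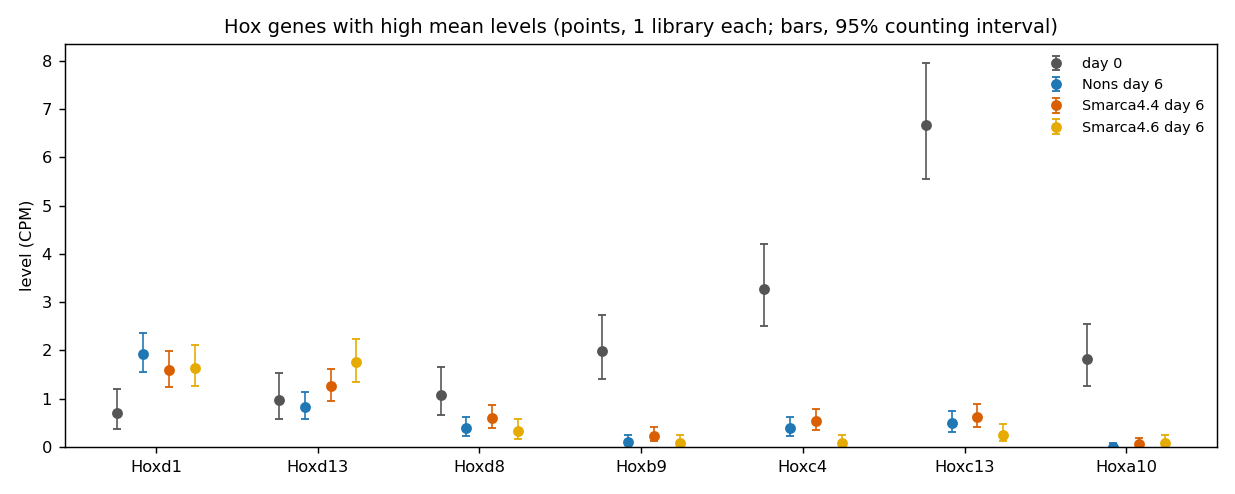
Points are the level in CPM of 7 Hox genes in each of the 4 libraries, and bars are 95% counting intervals for 1 library. Hoxc13, Hoxc4, Hoxb9 and Hoxa10 are highest at day 0 with intervals clear of all day 6 libraries, and Hoxd1 is lowest at day 0.

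The 2 hairpins did not give the same Hox values throughout. Smarca4.4 was above Smarca4.6 for Hoxc13 (2.49-fold, 1.15 to 5.99) and Hoxc4 (6.45-fold, 1.97 to 33.4), and below it for Hoxb1, with 0 reads against 9. Past 2-fold, 0 members were higher in Smarca4.4 (0.193% of all listed genes) and 1, Hoxb1, was lower (0.169%). Of the 3 kept members 0 differed 2-fold, where 0.656% of kept genes did, with a median log2 difference of -0.047 beside -0.031. Summed over clusters, HoxA was 1.63-fold higher in Smarca4.4 (1.21 to 2.21) and HoxC 2.36-fold higher (1.42 to 4.07, and without Hoxc4 1.68-fold, 0.937 to 3.12), and the HoxB and HoxD intervals included equality. Smarca4 itself differed between them as given above, and whether that bears on these values was not tested.

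Divided by transcript length, so that levels could be compared between genes, Hoxc13 led at day 0 with 2.71 CPM per kb, and Hoxc4 had 1.55 and Hoxb9 0.773 CPM per kb. In Nons Hoxd1 led with 1.03 CPM per kb, and Hoxd13 had 0.334 CPM per kb. Hoxd1 had 0.854 CPM per kb in Smarca4.4. In Smarca4.6 Hoxd1 led with 0.883 CPM per kb before Hoxd13 with 0.706 CPM per kb, although Hoxd13 had the most reads.

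None of the 15 noncoding RNAs of the clusters found, of 18 listed, passed the filter. Halr1, a noncoding RNA beyond the anterior end of HoxA, had 177 reads at day 0 (9.52 CPM), more than any Hox gene, and 1, 8 and 4 reads at day 6, a log2 difference of -8.77 in Nons (-14.08 to -6.27). Haglr, which starts beside Hoxd1 on the other strand as shown above, had 0 reads at day 0 and 31, 40 and 30 reads at day 6 (0.677, 0.848 and 0.822 CPM). The interval of its log2 difference between Nons and day 0 starts at 1.69. Haglr and Hoxd1 were thus both lowest at day 0, and both had intervals that included equality between Nons and each Smarca4 hairpin. Hottip and Hotair, the noncoding RNAs beside the posterior HoxA and HoxC genes, had 0 reads in all 4 libraries. In all, 16 members share exon bases with another annotated gene. The other 23 summed to 19.6 CPM at day 0 and to 4.61, 5.62 and 5.40 CPM at day 6, and were 4.24-fold lower in Nons than at day 0 (3.57 to 5.05).

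Many of the genes beside the clusters had far higher levels, but the listed genes nearest to HoxA, HoxB and HoxD were low. Evx1, 52.6 kb from HoxA, had 0.233 to 0.699 CPM. Ttll6, 28.9 kb from HoxB, had 4.14 CPM at day 0 and 0.361 to 0.658 CPM at day 6. Skap1, on the same chromosome and 96.3 kb from HoxB, had 0 to 0.240 CPM. Around HoxD, Mtx2, a mitochondrial protein gene 60.7 kb away, had 47.4 to 63.9 CPM and Lnpk, 88.9 kb away, 39.4 to 59.0 CPM, while Evx2, the homeobox gene 8.45 kb from Hoxd13, had 0 reads in every library. Around HoxC, Cbx5, which encodes a heterochromatin protein, had 574 to 651 CPM. Near HoxA, Skap2 went from 42.7 CPM at day 0 to 14.6 in Nons, a log2 difference of -1.55 (-1.70 to -1.40), and Hibadh had 86.3 and 85.8 CPM. Near HoxB, Calcoco2 went from 105 to 2.12 CPM, a log2 difference of -5.63 (-5.93 to -5.33). Of the 12 neighbours, 8 were kept. Of these, 1 was at least 2-fold higher and 2 lower in Nons than at day 0, where 31.9% of kept genes differed 2-fold. The median log2 difference of the 8 was -0.042.

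The cofactors of Hox proteins had a higher summed level than the Hox genes. The 9 TALE genes summed to 120 CPM at day 0 and 138 to 158 CPM at day 6. Of the 7 kept, 4 were at least 2-fold higher and 1 lower in Nons than at day 0, where 31.9% of kept genes differed 2-fold. The median log2 difference of the 7 was 1.27. Pbx2 went from 27.7 to 75.2 CPM (log2 difference 1.44, 1.30 to 1.57) and Meis3 from 0.968 to 7.47 CPM (2.95, 2.27 to 3.72). Meis2, below the filter on its mean, went from 13.4 CPM (250 reads) to 0.503 CPM (23 reads), a log2 difference of -4.74 (-5.43 to -4.12). Against Nons 0 of the 7 differed 2-fold with either hairpin, where 1.19% of kept genes did with Smarca4.4 and 1.82% with Smarca4.6. The medians of the 7 were -0.34 and -0.080.

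Of the 10 regulators listed, 5 were kept. Of these 1, Cdx4, was at least 2-fold higher in Nons than at day 0 and 0 lower, where 31.9% of kept genes differed 2-fold. The median log2 difference of the 5 was 0.75. The Cdx genes, which activate central and posterior Hox genes, differed in direction. Cdx4 lies on the X chromosome and Cdx1 and Cdx2 do not, and the part of X inactivation in the Cdx4 levels was not tested. Cdx1 had 546 reads at day 0 (29.4 CPM) and 1, 11 and 12 at day 6, while Cdx4 had 3 reads at day 0 (0.161 CPM) and 84, 109 and 73 at day 6 (1.84, 2.31 and 2.00 CPM). Cdx2 had 26 reads at day 0 and 10, 12 and 22 at day 6, and of the other ParaHox genes Gsx1, Gsx2 and Pdx1 had at most 6 reads in any library. Egr2, a hindbrain regulator of anterior Hox genes, had 0 reads at day 0 and 9, 46 and 42 at day 6, with log2 differences from Nons of 2.31 (1.26 to 3.53) with the first hairpin and 2.55 (1.49 to 3.77) with the second. It was below the filter on the mean and was named after its values were seen.

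Retinoic acid genes gave a mixed picture. Of 8 listed, 5 were kept. Of these, 2 were at least 2-fold higher in Nons than at day 0 and 0 lower, where 31.9% of kept genes differed 2-fold. The median log2 difference of the 5 was 0.63. Crabp2, which carries retinoic acid to its receptors, went from 1.34 to 26.5 CPM (log2 difference 4.30, 3.73 to 4.94), and Cyp26a1, the enzyme that degrades it, from 0.806 to 1.94 CPM (1.27, 0.47 to 2.17). Aldh1a2, the enzyme that makes it, was below the filter and went from 5.32 CPM (99 reads) to 0.372 CPM (17 reads), a log2 difference of -3.84 (-4.68 to -3.09). The 5 kept genes did not differ 2-fold from Nons with either hairpin, where 1.19% of all kept genes did with Smarca4.4 and 1.82% with Smarca4.6. The medians of the 5 were -0.39 and 0.083.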

How the data were processed

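RNA-seq values were analysed for 4 libraries of female F1 mouse embryonic stem cells, 1 library per group, and groups were taken from the sample titles. The deposited values are log2 CPM, made by the authors in SeqMonk after trimming with trim_galore and alignment with hisat2 (tophat is also named) to mm10 with strain-variable positions masked. The counting strand was not given in the sources used here, and nor was whether both ends of a pair were counted. Reads were recovered from the steps of the back-transformed deposited log2 values, in which 0 reads stand as 0.9 of 1 read. All values up to 1000 reads came out whole within 0.1 read.

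The 39 genes were found by name, and the members and all gene lists were chosen with earlier results of these data known. Members with a mean of at least 0.5 CPM, or the highest of their cluster, are described library by library. Values of some single genes are not reported here, although sums and counts over the members include all 39. Other members are given by counts and ranges, and those named beyond this rule were chosen after their values were seen. At most 4 genes of each other list are named by level or by size of difference, others again after their values were seen. A gene was kept for the planned count of 2-fold differences if its mean log2 CPM was at least 0, which kept 13264 genes. With 1 library per group no count model such as a replicated test could be fitted and no p-value is given. Intervals are exact 95% intervals (Clopper-Pearson for ratios and shares, Poisson for levels), they cover counting error only, and they compare libraries, not conditions. A fold against 0 reads is given as the lower end of its interval, and the detection mark was 3 reads per library. Levels between genes are per kb of the longest GENCODE M21 transcript. Promoters were the 250 bases before each RefSeq start (GRCm38.p6). Alternatives were other filters and detection rules, log2(CPM + 1), subtraction of the autosomal median and left-out members. The steps were checked on data with known answers. Python 3.11.15, pandas 2.3.3 and scipy 1.17.1 were used.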

Additional observations from a re-analysis of the deposited data

How the results depend on the processing

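No paired analysis was possible because no group has a second library, all 4 sharing 1 replicate number. Leaving out a replicate was likewise not possible, and the higher filter, a mean of 3 on the log2 scale, left 0 members and gives no value. Depth limits all single members, of which 12 had 10 reads or more at day 0.

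Without the filter, which then includes members at or near 0 reads whose written value depends on depth alone, 33 members differed 2-fold between Nons and day 0 and 13, 18 and 16 in the other comparisons in the order used above, and the median was -1.45 between Nons and day 0 and turned to -0.043 between Smarca4.4 and Nons. With a pseudocount of 1 CPM the count was 1 for Nons against day 0 and 0 for Smarca4.6 against Nons, and with intervals wholly past 2-fold it was again 1 and 0. Centring on the autosomal median turned the median for Smarca4.6 against Nons to -0.044. Intervals past equality, with the share of all listed genes in brackets, gave 1 higher for Nons against day 0 (26.1%), 3 higher for Smarca4.4 against Nons (19.8%), 3 higher (22.4%) and 2 lower (13.8%) for Smarca4.6 against Nons, and 3 higher for Smarca4.4 against Smarca4.6 (12.6%). A minimum of 10 reads left 8 members in Smarca4.4 and 4 in Smarca4.6, and at the depth of day 0 an expected 8.36 and 8.08 members would pass 3 reads there. Without Hoxc13, the member with the most reads over both libraries, the Nons to day 0 ratio of the sum was 0.327.

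Shares depended most on which members were counted. Without the member with the most reads, the day 0 shares were 44.3% for HoxA, 13.2% for HoxB, 22.7% for HoxC and 19.9% for HoxD, and 26.3% for anterior, 38.1% for central and 35.6% for posterior genes. In Nons they were 27.0% for HoxA, 21.6% for HoxC and 42.3% for HoxD, and 35.6%, 28.8% and 35.6% for the 3 classes. In Smarca4.4 they were 9.52% for HoxA, 21.8% for HoxC and 59.2% for HoxD, and 28.6%, 25.9% and 45.6% for the classes, and in Smarca4.6 31.8% for HoxA and 44.1% for HoxD, with 57.8% anterior and 21.3% posterior. Without members that share exon bases, chosen after seeing the data, day 0 gave 15.4% for HoxA, 12.9% for HoxB, 53.8% for HoxC, 3.57% anterior and 65.7% posterior. Nons gave 0% for HoxA, 20.9% for HoxC, 70.6% for HoxD, 43.1% anterior and 35.1% posterior. Smarca4.4 gave 6.04% for HoxA, 22.3% for HoxC, 63.4% for HoxD, 28.3% anterior, 24.9% central and 46.8% posterior, and Smarca4.6 gave 4.57% for HoxA, 72.1% for HoxD, 35.0% anterior and 48.7% posterior. HoxD held a larger share in every day 6 library than at day 0 under all of these settings, and the cause of the other shifts was not tested. With a pseudocount of 1 CPM, which shrinks differences of low genes by construction, the log2 difference between Nons and day 0 was -1.43 for Hoxb9, -2.35 for Hoxc13 and -1.62 for Hoxc4, and that of Hoxc4 was -0.36 for Smarca4.6 against Nons and 0.50 between the hairpins, against -4.19, -3.73, -3.06, -2.26 and 2.69 in the main values. The other 76 values for sums, counts, shares and levels kept their direction and stayed within their interval or within 1.5 times the count.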
